A study of Homo sapiens with 3 samples.

Results

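The JUN, FOS and ATF3 genes encode subunits of the transcription factor AP-1. They were taken by name, as the rows of the deposited expression table whose Ensembl identifiers map to JUN, JUNB, JUND, FOS, FOSB, FOSL1, FOSL2 and ATF3, which gave 8 of 60504 genes. RNA-Seq was performed on DLD1, an established line of human colorectal cancer cells, with 1 library from the DLD1 control and 2 libraries of BEX2-/- DLD1 cells, labelled KO1 and KO2. BEX2 had been knocked out with CRISPR/Cas9, which left a small deletion near its start codon, and clones had been screened by sequencing. Whether KO1 and KO2 are different clones or separate cultures of one is not given in the sources used here. The genotype was the only labelled difference between the groups.

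AP-1 is a dimer of proteins with a basic region that contacts DNA and a leucine zipper that holds the partners together. JUN proteins pair with each other or with FOS proteins, FOS proteins need a JUN partner, and ATF3 pairs with JUN proteins or with itself. The c-Jun N-terminal kinase, JNK, phosphorylates c-Jun, the product of JUN, and JUN is known to be among the genes that AP-1 dimers bind and activate. FOS, FOSB, JUNB and ATF3 are among the classical immediate early genes, whose transcripts appear and vanish soon after a stimulus. FOSL1 and FOSL2 transcripts last longer, and FOSL1 is often abundant in carcinoma cells with active RAS signaling. The comparison of BEX2-/- with control cells therefore asks of each gene whether its mRNA level differed.

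The deposited values are FPKM, fragments per kilobase of exon scaled to sequencing depth, so levels can be compared between genes as well as between libraries. Multiplied by exon length, the low values fell on steps of whole reads, which gave depths of 35593989 to 47722374 reads per library. BEX2 (ENSG00000133134) had no reads in any library, the control included, where up to 3 reads (0.0538 FPKM) could have been missed, so its mRNA gave no check of the genotype. All 12 markers of colorectal epithelium had values above 0, and 0 of them were under 0.1 FPKM in every library. EPCAM was at 220 to 282 FPKM and KRT8 at 510 to 611 FPKM. Some were low in KO2, where CDX1 was at 0.0834 FPKM, LGALS4 at 0.119, GPA33 at 0.216 and VIL1 at 0.221. Of 16 markers of fibroblasts, leukocytes and endothelium, 14 were under 0.1 FPKM in every library, PTPRC, LUM and COL3A1 at 0. The exceptions were CD14, at 0.700 to 0.793 FPKM, and PDGFRB, at 0.602 FPKM in KO1. In KO2, CD14 was above the low epithelial markers named here.

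Promoter sequence was examined first, since several AP-1 genes are known to be controlled by AP-1 and related factors themselves. RefSeq windows on GRCh38.p14, from 250 bases before to 50 bases after each annotated start, were available for 7 of the 8 genes, and FOSL1 was not matched. They were searched on both strands for the consensus AP-1 site TGACTCA, for the variant TGACATCA known from the JUN promoter, for the cyclic AMP response element TGACGTCA and for its half-site TGACGT, which the full element contains. The stretches of 30 bases below hold the first upstream match in each gene, 5′ to 3′ on the strand of the gene, with the matched bases in capitals, and are shown to let the promoters of the gene family be compared.
JUN, chr1:58784096-58784125, minus strand: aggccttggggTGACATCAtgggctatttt
ATF3, chr1:212565273-212565302, plus strand: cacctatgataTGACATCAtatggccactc
JUND, chr19:18281804-18281833, minus strand: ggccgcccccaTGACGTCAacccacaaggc
FOS, chr14:75278753-75278782, plus strand: ggttgagcccgTGACGTttacactcattca
FOSB, chr19:45467925-45467954, plus strand: caaggggcgggTGACGTaagcaggggggcg
FOSL2, chr2:28392781-28392810, plus strand: gagtctggggtTGACGTgagtgaatccaca

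The motif TGACATCA began 67 bases upstream of the RefSeq start of JUN and 123 bases upstream of the first of the ATF3 starts. It occurred in 2.61% of 35116 windows over all genes. The variant is known from the JUN promoter, so its match in the JUN window was given beforehand. TGACGTCA occurred in the JUND window, against 1.85% of all windows, and TGACGT in those of JUND, FOS, FOSB and FOSL2, against 7.98%. TGACTCA was found only in the window of FOSL2, just downstream of the start, against 4.95% of all windows. Neither the JUNB window nor that of the second ATF3 start held any of these letters. In GENCODE release 29 the JUN gene begins further upstream, so the JUN stretch lies inside its annotated exon, while those of FOS and FOSL2 overlap an exon in part. A match of letters is a description and does not show that a factor binds there.

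The order of levels was much the same in the 3 libraries. JUNB was highest in each, at 31.8 FPKM in the control, 34.9 in KO1 and 45.9 in KO2. Since the RNA came from whole cultures, fewer cells that express a gene and less of its RNA per cell cannot be told apart. JUND, the broadly expressed JUN protein, was at 27.2, 24.3 and 36.2 FPKM. FOSL1, which encodes Fra-1, was at 28.0, 14.2 and 27.8 FPKM. These 3 genes took the first 3 places in every library, FOSL1 ranking above JUND in the control and below it in both KO libraries. JUN and FOSL2 followed, and they changed places, since JUN was above FOSL2 in the control and KO2 and below it in KO1. ATF3, FOS and FOSB were sixth, seventh and last in all libraries. FOS, the first described FOS gene, was at 0.800, 0.573 and 1.09 FPKM, and FOSB at 0.250, 0.111 and 0.272 FPKM.

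**Figure D1:**
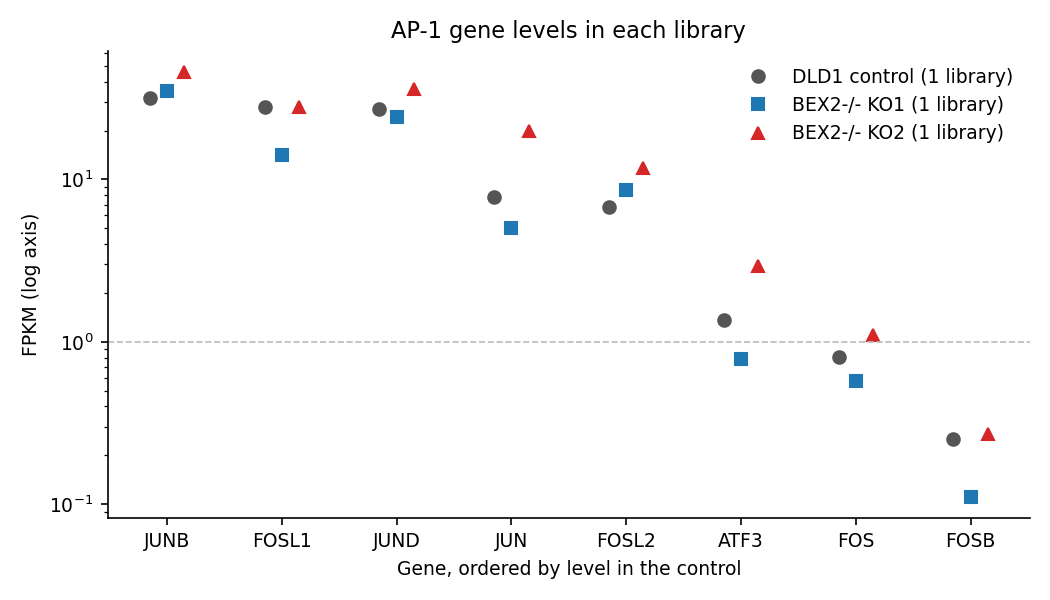
FPKM of each AP-1 gene (log axis) in the DLD1 control, KO1 and KO2 libraries, 1 point per library, with genes ordered by their level in the control and a dashed line at 1 FPKM. KO2 holds the highest point for 7 of the 8 genes and KO1 the lowest for 6.

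Summed over the 8 genes, AP-1 mRNA came to 104 FPKM in the control, 88.6 in KO1 and 146 in KO2. The JUN genes made up 64.2% of this sum in the control, 72.5% in KO1 and 69.9% in KO2. Most of the FOS family was FOSL1, with 78.1% of the summed FOS family FPKM in the control, 60.4% in KO1 and 67.8% in KO2. JUN itself supplied 7.51% of the sum over all 8 genes in the control, 5.68% in KO1 and 13.6% in KO2, so its share was largest where the total was largest.

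**Figure D2:**
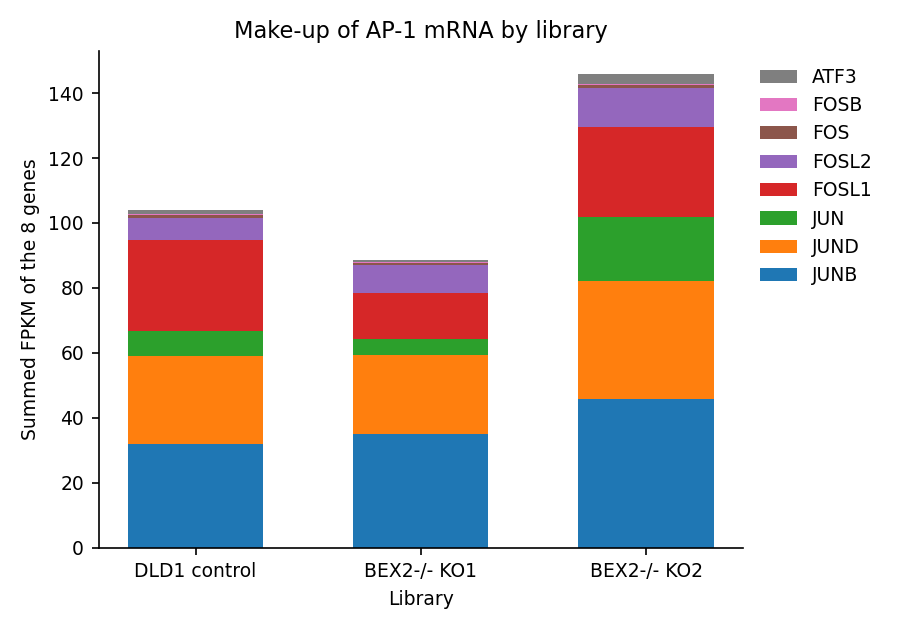
Stacked bars of the FPKM of the 8 AP-1 genes in each library, 1 library per bar. The total was 104 in the control, 88.6 in KO1 and 146 in KO2, and JUNB, JUND and FOSL1 fill most of each bar.

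To ask whether AP-1 gene expression differed in BEX2-/- cells, each KO library was compared with the control, and the KO libraries with each other. Ratios were taken of FPKM + 1, which understates the change of low genes, and a change of at least 2-fold was counted in genes whose control value and KO average had a mean of 1 FPKM or more. This filter kept 11675 genes and 6 of the 8 AP-1 genes, leaving out FOS and FOSB. A comparison of 1 library with another has no replicate check. Exact 95% intervals of the FPKM ratio, made from the recovered reads, cover counting error only, and a difference between clones cannot be told apart from one between cultures.

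JUN (ENSG00000177606, 58780788 to 58784327 on the minus strand of chromosome 1, GRCh38) was the AP-1 gene with the widest range. It was at 7.81 FPKM in the control, 5.03 in KO1 and 19.8 in KO2, which are 1312, 634 and 3338 reads. KO2 stood apart above the other libraries, and the control lay between the KO libraries. The FPKM ratio to the control was 0.644 in KO1 (95% counting interval 0.585 to 0.709) and 2.53 in KO2 (2.37 to 2.70). Between the KO libraries it was 3.93 (3.61 to 4.28). Relative to JUNB in the same library, a ratio that no scaling between libraries can move, JUN was at 0.245 in the control, 0.144 in KO1 and 0.430 in KO2.

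ATF3, a stress-induced gene whose product can repress or activate, followed the same order at a lower level. It was at 1.36 FPKM in the control, 0.779 in KO1 and 2.94 in KO2, or 260, 112 and 566 reads. The ratio to the control was 0.574 (0.456 to 0.719) in KO1 and 2.16 (1.87 to 2.52) in KO2, and between the KO libraries it was 3.77 (3.07 to 4.66). JUN and ATF3 were the only AP-1 genes past the filter with a 2-fold or greater difference from KO1 to KO2.

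The other JUN genes moved less. JUNB, whose product is a weaker activator than c-Jun at many sites, had FPKM ratios to the control of 1.10 (1.04 to 1.16) in KO1 and 1.44 (1.37 to 1.51) in KO2. Of its 1820 nt of exons, 14.2% are shared with exons of HOOK2 on the opposite strand, and reads of the pair cannot be told apart if strand was not counted, which is not given in the sources used here. JUND had ratios of 0.894 (0.839 to 0.953) and 1.33 (1.26 to 1.40). For JUNB both KO libraries were above the control, while for JUND KO1 was below it and KO2 above it.

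Among the FOS genes, FOSL1 and FOSL2 differed in pattern. FOSL1 (ENSG00000175592) was low in KO1 alone, with 956 reads against 2509 in the control and 2503 in KO2. Its ratio to the control was 0.508 (0.471 to 0.548) in KO1 and 0.992 (0.938 to 1.05) in KO2, so a difference between KO2 and the control was not detectable at this depth. FOSL2, which encodes Fra-2, was at 6.79 FPKM in the control, 8.66 in KO1 and 11.8 in KO2. It was above the control in both KO libraries, by ratios of 1.28 (1.20 to 1.35) and 1.74 (1.65 to 1.83).

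FOS and FOSB were measured on few reads. FOS had 123 reads in the control, 66 in KO1 and 169 in KO2, with ratios of 0.715 (0.522 to 0.973) and 1.37 (1.08 to 1.74) to the control. FOSB had 66, 22 and 72 reads, with ratios of 0.444 (0.261 to 0.730) and 1.08 (0.766 to 1.54). Both were lowest in KO1 and highest in KO2, though the FOSB interval for KO2 against the control included 1.

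**Figure D3:**
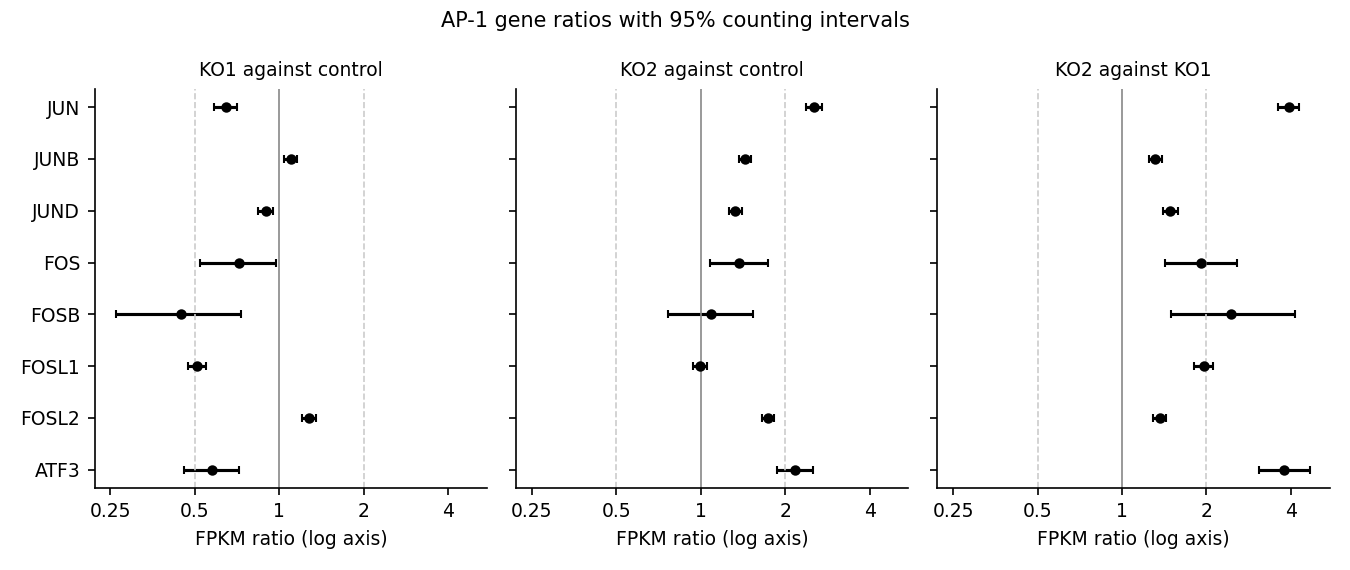
FPKM ratios (log axis) of the 8 AP-1 genes for KO1 against the control, KO2 against the control and KO2 against KO1, with bars for the exact 95% counting interval, a solid line at 1 and dashed lines at 0.5 and 2. All 8 intervals lie above 1 for KO2 against KO1, while 6 lie below 1 for KO1 against the control. Intervals were made for these 8 genes only, so the share of all genes with such intervals is not known. With many reads, even a small ratio has an interval that leaves out 1.

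Counted on the scale of FPKM + 1, 0 of the 6 AP-1 genes past the filter differed at least 2-fold between KO1 and the control, where 2.02% of all genes did (1.06% higher and 0.959% lower). By any amount, 2 of the 6 were higher, against 56.2% of all genes, and 4 were lower, against 43.8%. FOSL1 came nearest to 2-fold, with a log2 ratio of -0.93, and only 1.15% of genes had a lower one.

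Between KO2 and the control, 1 of the 6 genes differed at least 2-fold, against 2.06% of all genes. It was JUN, with a log2 ratio of 1.24, among 1.33% of genes that were higher and 0.737% that were lower. By any amount, 5 of the 6 were higher, against 48.4% of all genes, and 1 was lower, against 51.6%. ATF3 at 0.74 and FOSL2 at 0.72 came next, above 97.1% and 96.9% of genes. No AP-1 gene differed at least 2-fold from the control in the same direction in both KO libraries, as 0.325% of genes did. The comparisons with the control share its library.

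Between the KO libraries, 2 of the 6 genes differed at least 2-fold, JUN with a log2 ratio of 1.78 and ATF3 with 1.15, against 4.19% of all genes. Both were higher in KO2, as were 2.51% of genes, while 1.68% were lower. All 6 were higher in KO2 than in KO1 by any amount, as were 42.2% of genes past the filter, with 57.8% lower. Taking in FOS and FOSB, all 8 were higher, against 44.4% of 28170 genes with any value. The median log2 ratio of the 6 genes was 0.74, against -0.05 over all genes.

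Plain ratios of FPKM, with no pseudocount or filter, were added after the data were seen. On these, FOSB was at least 2-fold lower in KO1 than in the control, where 14.8% of 23169 genes differed by that much either way. JUN and ATF3 were at least 2-fold higher in KO2 than in the control, against 17% of genes. JUN, ATF3 and FOSB were at least 2-fold higher in KO2 than in KO1, against 19.4% of genes.

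**Figure D4:**
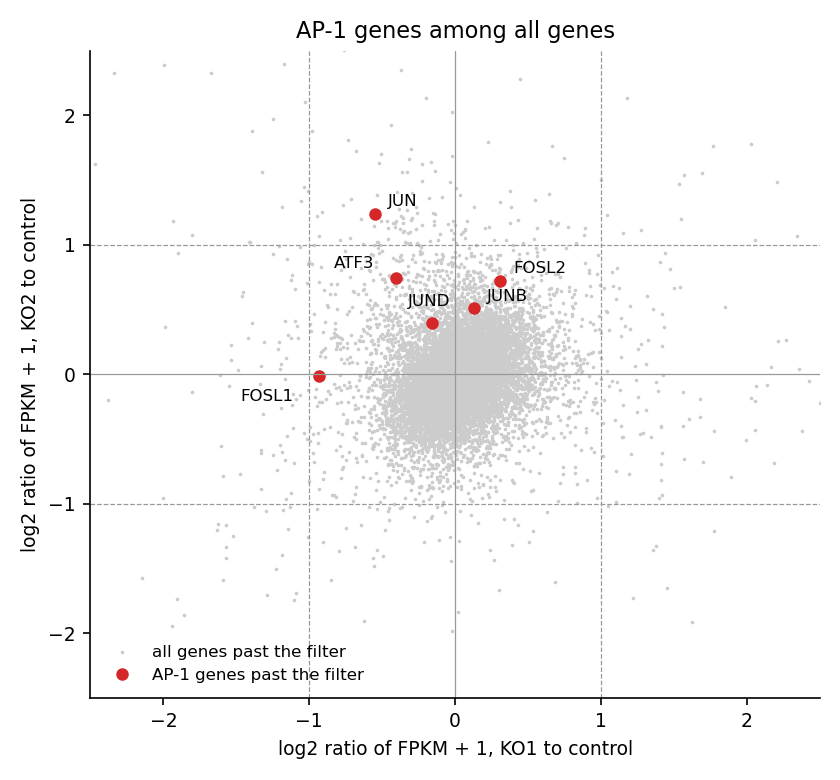
Log2 ratio of FPKM + 1 of KO1 to the control (horizontal) and of KO2 to the control (vertical) for 11675 genes (grey) and the 6 AP-1 genes past the filter (red), with dashed lines at 2-fold, and with 22 genes beyond the plotted limits of 2.5. JUN lies at -0.55 and 1.24 and ATF3 at -0.41 and 0.74, while FOSL1 lies at -0.93 and near 0 on the vertical axis.

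The 2 KO libraries were also set together against the control with limma across all genes past the filter. This fit takes its spread from the difference between the KO libraries and assumes that the lone control library varies as they do. Nothing says that the KO libraries came from separate cultures, so its p-values measure only the spread between these samples. No AP-1 gene passed, with adjusted p-values of 1.00 for all 6 and unadjusted p-values of 0.125 for FOSL2 to 0.786 for ATF3. The fitted log2 difference was 0.35 with a standard error of 0.84 for JUN, 0.51 with 0.26 for FOSL2 and -0.47 with 0.46 for FOSL1. Over all 11675 genes, 0 (0%) passed an adjusted p-value of 0.05 in limma, and 139 (1.19%) had an unadjusted p-value under 0.05. The mean of the KO libraries was 12.4 ± 10.4 FPKM (SD, n = 2) for JUN and 1.86 ± 1.53 FPKM (SD, n = 2) for ATF3, and in both genes the control value was less than 1 SD from it. For FOSL2 the mean was 10.2 ± 2.23 FPKM (SD, n = 2) and for JUNB 40.4 ± 7.76 FPKM (SD, n = 2), each more than 1 SD above the control.

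The epithelial markers moved between the KO libraries as well. KRT20, an intermediate filament protein of differentiated intestinal cells, was at 18.9 FPKM in the control, 117 in KO1 and 0.931 in KO2. VIL1, a protein of the brush border, was at 3.61, 13.2 and 0.221 FPKM. Of the 12 markers, 9 were highest in KO1 and 8 were lowest in KO2. The other 3 were highest in KO2 and were the most abundant of the list. In the control, KO1 and KO2, KRT8 was at 538, 510 and 611 FPKM, KRT18 at 412, 312 and 455, and KRT19 at 305, 442 and 494. The summed level of the 12 markers was 1657 FPKM in the control, 1924 in KO1 and 1886 in KO2. The part of this difference in the AP-1 levels was not tested.

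The kinases upstream of c-Jun were examined next, in a list of 24 JNK cascade kinases and scaffolds of which 20 passed the filter. This list and the gene lists that follow were drawn up with earlier results of these data known. Their counts beside the shares of all genes are descriptions and not tests. None of them differed at least 2-fold, where 2.02% of all genes did so in KO1 against the control, 2.06% in KO2 against the control and 4.19% between the KO libraries, so a count of 0 among 20 is near these shares. Their median log2 ratio was 0.05 for KO1 to the control, 0.21 for KO2 to the control and 0.03 for KO2 to KO1. MAPK8 and MAPK9 encode the widely expressed JNK proteins, and MAPK8 was at 2.91, 3.09 and 2.84 FPKM and MAPK9 at 5.71, 6.09 and 5.93 FPKM in the control, KO1 and KO2. MINK1, a kinase that acts far upstream in the cascade, was the most abundant of the list at 14.6, 20.4 and 21.0 FPKM, and TRAF2, an adaptor of TNF receptors, was at 12.1, 9.68 and 12.9 FPKM. None of the 20 genes passed limma.

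Of 15 genes for the turnover and co-regulation of JUN and FOS proteins, 14 passed the filter. None differed at least 2-fold in any comparison, a count near the same shares of 2.02%, 2.06% and 4.19%. In KO2, 7 were higher and 7 lower than in KO1, against 42.2% and 57.8% of all genes, with a median log2 ratio of 0.02. APEX1, which keeps AP-1 in the reduced form that binds DNA, was the most abundant, at 142, 114 and 131 FPKM. DDB1, an adaptor of the ubiquitin ligase that acts on c-Jun, was at 31.1, 29.2 and 31.1 FPKM.

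Of 21 genes for other basic leucine zipper proteins that can pair with JUN or FOS or bind related sites, 15 passed the filter. MAFF, a small MAF protein without an activation domain, was the only one at 2-fold or more in any comparison. It was at 3.10 FPKM in the control, 1.42 in KO1 and 6.30 in KO2, with a log2 ratio of 1.59 between the KO libraries, where 4.19% of all genes differed at least 2-fold. Of the 15 genes, 10 were higher and 5 lower in KO2 than in KO1, against 42.2% and 57.8% of all genes, with a median log2 ratio of 0.22. The most abundant were ATF4, at 224, 206 and 160 FPKM, and NFE2L2, at 21.8, 27.0 and 22.9 FPKM, which respond to amino acid and oxidative stress, and neither was highest in KO2.

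MAPK phosphatases remove the phosphates that activate JNK, ERK and p38, and several are themselves induced by those kinases. Of 12, 10 passed the filter, and DUSP5 and DUSP6, which act on ERK, were at 2-fold or more. DUSP6 was at 11.5 FPKM in the control, 3.73 in KO1 and 24.5 in KO2, so that KO1 lay below the control and KO2 above it, and its log2 ratio between the KO libraries was 2.43. DUSP5 was at 8.30, 6.95 and 27.7 FPKM, with a log2 ratio of 1.85 between the KO libraries. The 10 genes had a median log2 ratio of 0.45 between the KO libraries, with 7 higher and 3 lower in KO2, against 42.2% and 57.8% of all genes, and 2 at 2-fold or more, against 4.19%.

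Of 31 immediate early genes outside AP-1, 25 passed the filter. Their median log2 ratio was -0.08 for KO1 to the control, 0.31 for KO2 to the control and 0.31 between the KO libraries, where 20 were higher and 5 lower in KO2, against 42.2% and 57.8% of all genes. Between the KO libraries 4 were at least 2-fold higher, against 2.51% of all genes. EGR1, a zinc finger factor induced with FOS, was at 9.51 FPKM in the control, 5.10 in KO1 and 17.4 in KO2. CCN1, a secreted matrix protein, was at 8.75, 3.11 and 17.5 FPKM, and IER3, a regulator of survival, at 57.1, 27.8 and 154 FPKM. These genes had the order of JUN, with the control between the KO libraries. KLF6, another zinc finger factor, did not: it was at 8.11, 14.6 and 19.1 FPKM, above the control in both KO libraries, and limma gave it an unadjusted p-value of 0.021 and an adjusted p-value of 1.00. ZFP36L1, which binds mRNAs for decay, was at 34.8 and 35.0 FPKM in the control and KO1 and at 71.3 in KO2.

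**Figure D5:**
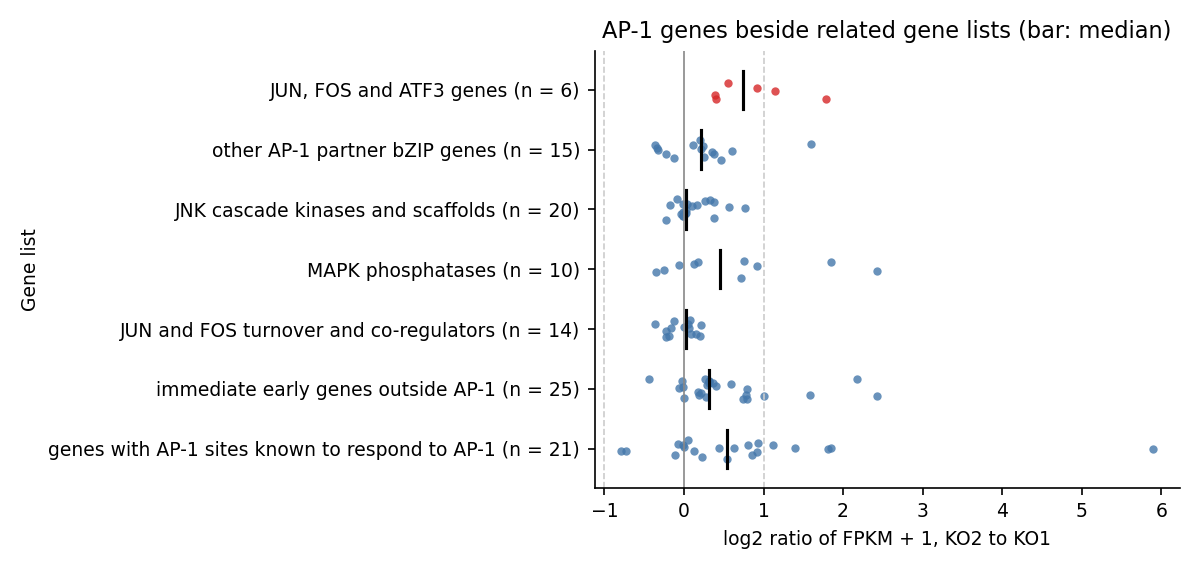
Log2 ratio of FPKM + 1 of KO2 to KO1 for the genes of each list that passed the filter, 1 point per gene with a bar at the median, a solid line at 0 and dashed lines at 2-fold. The medians were 0.74 for the JUN, FOS and ATF3 genes, 0.45 for the phosphatases, 0.03 for the JNK cascade and 0.02 for the turnover genes.

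Across the 3 libraries, the genes whose pattern was nearest to that of JUN were PLK2, IL20RA, IGF2, HMGA2 and MAP3K8. Likeness was the Euclidean distance between the pairs of log2 ratios to the control, over 10049 protein-coding genes past the filter. PLK2, a polo-like kinase, was at 6.01 FPKM in the control, 3.92 in KO1 and 14.9 in KO2, at a distance of 0.07. The distances of the other genes were 0.09 for IL20RA, 0.10 for IGF2, 0.11 for HMGA2 and 0.14 for MAP3K8, and 25 genes lay within 0.25. With only 3 libraries such closeness rests on 2 numbers per gene. The pseudocount shrinks the ratios of low genes, so closeness on this scale does not mean equal FPKM ratios. In the control, KO1 and KO2, IGF2 was at 0.761, 0.274 and 2.996 FPKM and MAP3K8 at 1.27, 0.648 and 3.96 FPKM. HMGA2 was at 1.55, 0.626 and 4.86 FPKM. For IGF2, HMGA2 and MAP3K8 the plain FPKM ratio of KO2 to KO1 was larger than the 3.93 of JUN.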

How the data were processed

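Libraries were prepared with the Illumina TruSeq RNA kit and sequenced on an Illumina HiSeq. The authors deposited FPKM values per gene and library, without pooling. The submitters' processing notes list Trim Galore 0.3.7, STAR 2.5, Cufflinks 2.2.1, DESeq 1.22.1 and the build hg19. Exon lengths of GENCODE release 29, which is on GRCh38, nevertheless turned most low values into whole reads. The build and annotation used for counting are therefore not settled. Symbols, exon lengths and gene positions came here from GENCODE release 29 on GRCh38 by Ensembl identifier, which held 56996 of 60504 identifiers, and no coordinates were converted. The AP-1 genes and the 6 gene lists were chosen from general knowledge with earlier results of these data known.

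Each library's depth was the number at which most low values became whole within 0.02, which held for 98.7% to 98.9% of values under 20 reads in genes with 1 transcript and 88.9% to 89.8% in genes with several. All 24 AP-1 values came out whole. Ratios used a pseudocount of 1 FPKM. Counting intervals were exact (Clopper-Pearson, conditional on the summed reads of a pair of libraries) and assume that reads are independent molecules. limma 3.58.1 (R 4.3.3) was fitted with a trended prior and Benjamini-Hochberg adjustment. In simulated data limma and the fold counts recovered the changed genes, but limma also called more unchanged genes than its threshold allows. Whether limma would recover a gene whose KO libraries lie on opposite sides of the control, as those of JUN did, was not tested. No count test was run, since reads were not recovered whole in all genes. GENCODE 29 lists CCN1 under an older symbol. The genes named were BEX2, the AP-1 genes, those of each list at 2-fold or more (at most 4) or among its 2 most abundant, and the 5 nearest to JUN. Other genes named were chosen after their values were seen. Scripts ran in Python 3.11.15 with scipy 1.17.1, pandas 2.3.3 and numpy 2.4.6, and plots were drawn with matplotlib 3.10.9. The alternatives were another pseudocount, scalings, filters and thresholds, and the omission of each KO library.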

Additional observations from a re-analysis of the deposited data

How the results depend on the processing

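With 1 control library, no spread among control cells is known, and the KO libraries differ from each other in more genes than either does from the control. No paired analysis was possible because there is only 1 control library, which leaves a single pair. The count of AP-1 genes at 2-fold or more in KO2 against the control rose from 1 to 2 with a pseudocount of 0.1 FPKM and with TPM scaling, ATF3 joining JUN, and to 3 at a 1.5-fold threshold. At that threshold the count for KO1 against the control was 1 rather than 0. Between the KO libraries it fell from 2 to 1 with a mean of at least 5 FPKM, which left out ATF3. The number of AP-1 genes past the filter was 7 with TPM scaling and 5 with a mean of at least 5 FPKM. The share of all genes called was not computed for these settings, so the shifts in count cannot be set beside it. Ratios of FPKM without a pseudocount or filter, chosen after seeing the data with values under 3 reads set to 3 reads, gave 1 for KO1 and 2 for KO2 against the control, where 14.8% and 17% of genes were called. The count changed in the same direction in both KO libraries was 0 under every alternative that kept both. With a KO library omitted, such a count cannot be made. What was counted then was the remaining library against the control, which gave 1 without KO1, namely JUN, and 0 without KO2. Of the recomputed counts, 28 stayed within 1.5 times and 8 did not. The 8 include the count without KO1, which only repeats that of KO2 against the control. limma called 0 genes in each fit, with 51 to 1578 at an unadjusted p-value under 0.05. Of the AP-1 ratios to the control, averaged over the KO libraries, that of FOS changed sign, from 0.01 to -0.0070, with a pseudocount of 0.1 FPKM. With either KO library omitted, the log2 ratio of JUN was -0.55 or 1.24, that of ATF3 -0.41 or 0.74, that of JUND -0.16 or 0.40, that of FOS -0.20 or 0.22 and that of FOSB -0.17 or 0.024, each changing sign. FOSL1 in KO2 against the control changed from -0.01 to 0.06 with TPM scaling and to 0.0024 with median scaling. No scaling moved the median of all genes by over 0.1.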

Other observations

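Genes that are known to respond to AP-1 were listed as well, 36 in all, of which 21 passed the filter. This list too was drawn up with earlier results of these data known, so its counts are descriptions. Between the KO libraries, 16 of them were higher and 5 lower in KO2, against 42.2% and 57.8% of all genes, with a median log2 ratio of 0.54, and 5 were higher at least 2-fold, against 2.51% of all genes past the filter. The median was -0.18 for KO1 to the control and 0.29 for KO2 to the control. AREG and EREG encode ligands of the EGF receptor. AREG was at 97.0 FPKM in the control, 73.4 in KO1 and 259 in KO2, and EREG at 62.3, 41.0 and 110 FPKM. CXCL8, a neutrophil chemokine, was at 5.62, 0.148 and 67.5 FPKM. HMGA2, a chromatin protein, was at 1.55, 0.626 and 4.86 FPKM, at a small part of the level of its relative HMGA1, at 431, 288 and 447 FPKM. KRT18, a keratin of simple epithelia, was at 412, 312 and 455 FPKM.

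The matrix metalloproteinases on this list, which are common AP-1 reporters in other cells, were scarcely measured. MMP9 was listed at 0 in every library, and MMP1, MMP3, MMP7, MMP10 and MMP13 were at or under 0.314 FPKM in all of them. PLAU, which encodes the protease urokinase, passed the filter. It was at 1.41 FPKM in the control, 0.352 in KO1 and 1.93 in KO2, with a log2 ratio of 1.12 between the KO libraries. The antioxidant genes of the list were highest in KO1, with GCLC at 5.83, 9.99 and 5.65 FPKM and HMOX1 at 4.63, 8.01 and 4.22 FPKM. MMP1, MMP3, MMP7, MMP9, MMP10, MMP13, PLAU, GCLC and HMOX1 were chosen after their values were seen. Each gene was also fitted with limma, and none of the 6 lists held a gene with an adjusted p-value under 0.05.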
